A study of Mus musculus with 6 samples.

Results

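The genes of mitochondrial complex I were compared between FITChigh and FITCdim, 2 sorted populations of mouse heart cells. Members were all genes whose symbol begins with Nduf. There were 45 of them among the 23404 genes of the deposited table, 38 named as subunits and 7 named as assembly factors (Ndufaf). With a value of at least 1 required in at least 3 of the 6 libraries, 44 of the 45 were tested, in a fit over all 12907 genes that met the same filter. The exception was Ndufs5, a small subunit on the outer face of the membrane arm, which was listed at 0 in every library. Its recovered reads were also 0 in all 6 libraries. Sampling can give a 0 in 1 library where up to 3 reads are expected, and zeros in all 6 together put the expected reads lower than that. How the counting treated genes with pseudogene copies is not given in the sources used here.

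Each library was made from messenger RNA of cardiomyocytes, the contractile cells of the heart, from C57BL/6J mice, an inbred strain. The cells were sorted by green autofluorescence, read in the FITC channel, and by light scattered forward (FSC), which grows with particle size. FITChigh cells (labelled FITChigh/FSCdim) were bright in FITC and dim in FSC, and FITCdim cells (labelled FITCdim/FSChigh) were the reverse, with 3 libraries of each. The title of the series gives the aim as purifying ventricular cardiomyocytes by autofluorescence. The labels give neither the age nor the sex of the mice, nor which animals went into which library. The series text speaks of biological replicates, and the p-values below reflect how much these libraries varied, whatever the source of that variation.

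Complex I, the NADH to ubiquinone oxidoreductase, is the entry point of electrons from NADH into the respiratory chain, and it couples their transfer to proton pumping across the inner mitochondrial membrane. Its matrix arm holds the flavin (FMN) and the iron-sulfur clusters that carry electrons to ubiquinone, and its membrane arm holds the proton channels. The core subunits descend from the bacterial enzyme, and those of the membrane arm are encoded in mitochondrial DNA and were not analysed here. Accessory subunits surround the core, and assembly factors bind intermediates while the enzyme is built and are absent from the finished complex. In the heart, whose cells are packed with mitochondria, the enzyme works at a high rate throughout life.

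Values are adjusted read counts, the authors' deposited values, and a difference is the log2 of FITChigh over FITCdim after adding 1. Recovered reads numbered 1589825 to 2931045 in FITChigh libraries and 1705626 to 3345994 in FITCdim libraries, and 1 read was worth 0.607 to 1.54 adjusted counts. The deposited adjustment left unequal totals, 2333473 to 2443707 adjusted counts in FITChigh and 2030583 to 2112872 in FITCdim. All 16 cardiomyocyte markers were detected in both gates and made up 19.8% of the adjusted counts in FITChigh against 15.9% in FITCdim. Markers of other cells made up little of either gate but differed between the gates. The endothelial list summed to 779 to 1091 adjusted counts in FITChigh and 5592 to 6434 in FITCdim, with 12 of 12 genes lower. The fibroblast list summed to 115 to 144 in FITChigh and 622 to 1133 in FITCdim (9 of 9 tested lower, Tcf21 at 0 in all FITChigh libraries), and the immune list to 118 to 161 in FITChigh and 542 to 1243 in FITCdim (10 of 10 lower). The mural list, of vessel-wall muscle and pericytes, summed to 1383 to 1836 in FITChigh and 1880 to 2475 in FITCdim (6 of 8 lower), and the atrial list to 277 to 501 in FITChigh and 1287 to 2601 in FITCdim (6 of 7 tested lower). Apart from Tcf21, no marker was at 0 in all libraries of a gate.

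The median complex I transcript was 1.35-fold higher in FITChigh in the deposited values, and this moderate excess ran through both arms of the enzyme and its assembly factors, but it was not seen relative to cardiomyocyte markers. Of the 44 genes tested, 42 had a difference above 0, against 49.4% of all genes, and the median difference was 0.44 against -0.006 for all genes, while after rescaling to the cardiomyocyte markers 22 lay above 0 and 22 below. Limma-trend at an adjusted p of 0.05 called 8 of the 44 higher (18.2%) and 1 lower, and 35 did not pass. The 8 were Ndufs6, Ndufa1, Ndufb10, Ndufa6, Ndufaf2, Ndufa12, Ndufaf1 and Ndufs1, and the lower one was Ndufa4l2. Among all 12907 genes 2.51% were called higher and 13.5% lower, and these shares are the background for each count of calls in the deposited values below. In 11 of the 44 complex I genes all 3 FITChigh values lay above all 3 FITCdim values, which held for 1473 of all 12907 genes (11.4%). In 1 of the 44 they lay below, which held for 2609 of all 12907 (20.2%). The part of the other cell types and of the unequal totals in these differences was not tested. In bulk samples, fewer cells of a type and less RNA per cell cannot be told apart.

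The count of 8 depended on the libraries and on the scaling. It was 2, 3 and 14 without FITChigh replicates 1, 2 and 3, and 1, 13 and 3 without FITCdim replicates 1, 2 and 3. It was 2 after scaling all libraries to a common total, 5 after quantile normalization and 0 after scaling to the cardiomyocyte markers, where 1 gene was higher and 1 lower at an unadjusted p under 0.05. Of the 8 genes, only Ndufs6 was called in each of the 6 fits without a library, and Ndufa1 was lost only without FITCdim replicate 1. Without FITChigh replicate 1 Ndufs6 and Ndufa1 remained, without FITChigh replicate 2 both of these and Ndufaf1, and without FITCdim replicate 3 Ndufs6, Ndufa1 and Ndufb10. Without FITChigh replicate 3 or FITCdim replicate 2 the same 5 remained, Ndufs6, Ndufa1, Ndufb10, Ndufa6 and Ndufa12. Limma-voom on recovered reads and robust limma each called 10. With a tag shared between titles of the 2 gates as a replicate block the count was 31, but the labels do not explain the tag. Higher genes made up 15.6% of all calls as deposited, 1.84% with a common total, 27.8% after quantile normalization and 0.258% with the marker scaling.

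**Figure D1:**
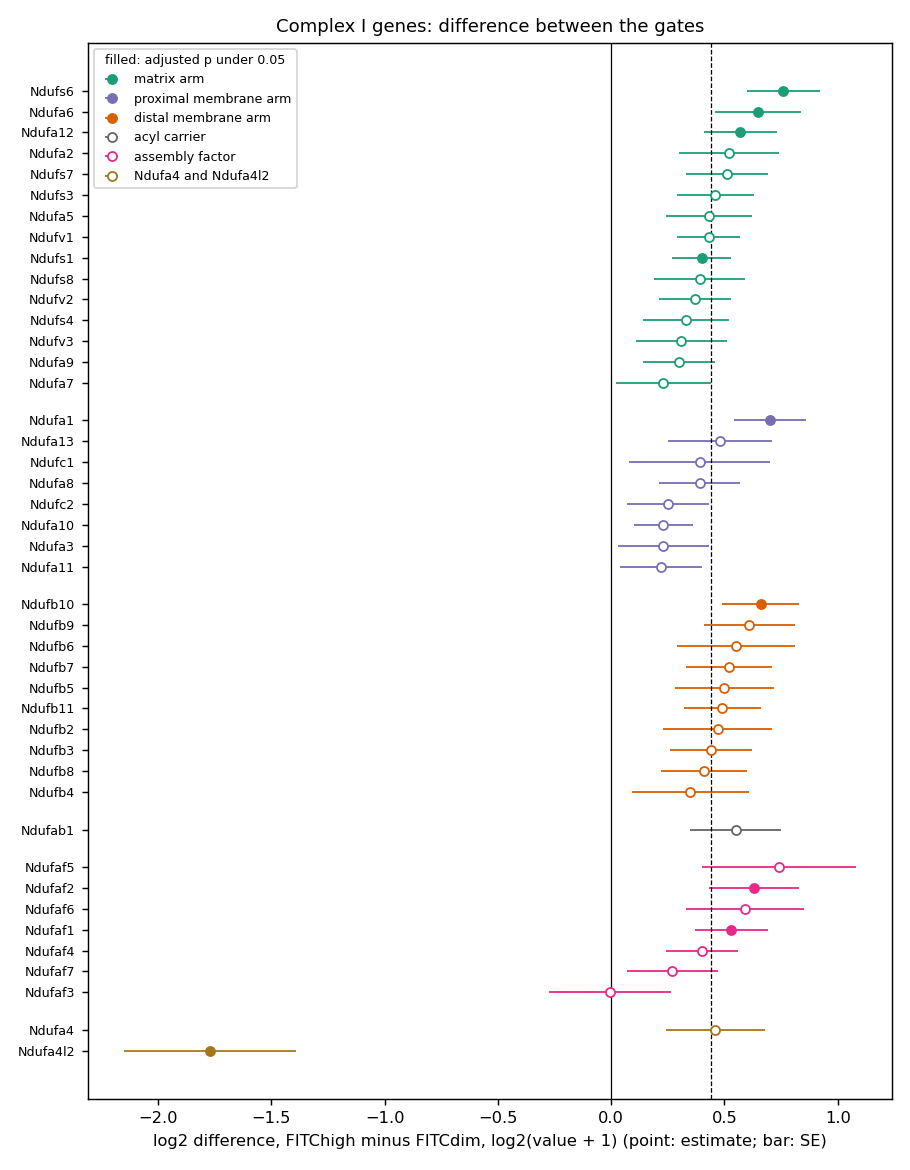
Log2 difference (FITChigh minus FITCdim, of adjusted read count plus 1) of 43 complex I genes tested, with bars of 1 SE, grouped by their place in the enzyme, filled where the adjusted p was under 0.05. The dashed line is the complex I median of 0.44, and 41 points lie right of 0, of which only Ndufs6, Ndufa1, Ndufb10, Ndufa6, Ndufaf2, Ndufa12, Ndufaf1 and Ndufs1 are filled, while with the cardiomyocyte marker scaling 22 of these genes lie right of 0.

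The 7 nuclear core subunits, all in the matrix arm, differed by nearly the same amount. Their differences ran from 0.37 to 0.51 with a median of 0.40 (1.32-fold), and 1 of the 7, Ndufs1, passed the test. With the cardiomyocyte marker scaling the differences of Ndufs1, Ndufs8, Ndufv1 and Ndufv2 were below 0, between -0.065 and -0.00092, as that scaling lowers all genes by a similar amount. Ndufs1 (chromosome 1, 63143596 to 63176833, mm10), the largest subunit of the enzyme and a carrier of iron-sulfur clusters, had 2063, 1925 and 1885 adjusted read counts in FITChigh libraries, against 1583, 1502 and 1367 in FITCdim. The gates did not overlap, and no other complex I gene varied as little within the gates, with a pooled SD of 0.09 on the log2 scale. Its difference was 0.40 (SE 0.13, limma-trend adjusted p = 0.043, 0.0018 to 0.87 over 16 alternatives).

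Ndufv1, which binds NADH and FMN and so takes up the electrons, missed the threshold by little. It had 1847, 1727 and 1489 adjusted read counts in FITChigh libraries, against 1402, 1297 and 1061 in FITCdim, with no overlap (0.43, SE 0.14, adjusted p = 0.051). Ndufv2, its neighbour with an iron-sulfur cluster, had 1148, 1422 and 1016 in FITChigh against 930, 1079 and 766 in FITCdim (0.37, SE 0.16, adjusted p = 0.13). In Ndufv2 FITCdim replicate 2 lay above FITChigh replicate 3, so that the gates overlapped. Ndufs7, which holds the last iron-sulfur cluster before ubiquinone, had 598, 638 and 424 in FITChigh against 388, 469 and 304 in FITCdim (0.51, SE 0.18, adjusted p = 0.062). Ndufs3, a structural core subunit, had 645, 728 and 507 in FITChigh against 470, 548 and 355 in FITCdim (0.46, SE 0.17, adjusted p = 0.084). Ndufs8, with iron-sulfur clusters of its own, had 467, 636 and 354 in FITChigh against 338, 463 and 299 in FITCdim (0.39, SE 0.20, adjusted p = 0.22). In each of these 3 genes FITChigh replicate 3 was below FITCdim replicate 2.

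Among the 9 accessory subunits of the matrix arm, Ndufs6, Ndufa6 and Ndufa12 rose in FITChigh. Ndufs6 (chromosome 13, 73319838 to 73328542, mm10) is a zinc-binding subunit whose deficiency in mice leads to cardiomyopathy. It had 1361, 1659 and 1101 adjusted read counts in FITChigh libraries, against 687, 949 and 785 in FITCdim. All FITChigh values lay above all FITCdim values, and the difference of 0.76 (SE 0.16, adjusted p = 0.0037, 3.7e-05 to 0.11 over 16 alternatives) was the highest of the 44 genes. The 1 alternative of the 16 without a call of Ndufs6 was the cardiomyocyte marker scaling, where the difference was 0.33.

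Ndufa12 (chromosome 10, 94198720 to 94221443), a paralog of the assembly factor Ndufaf2, had 1011, 1002 and 840 adjusted read counts in FITChigh libraries, against 510, 791 and 639 in FITCdim. The gates did not overlap (0.57, SE 0.16, adjusted p = 0.019, 0.0015 to 0.51 over 16 alternatives). Ndufa6 (chromosome 15, 82350140 to 82354322), a small protein that anchors an acyl carrier subunit, had 636, 846 and 456 in FITChigh against 360, 483 and 364 in FITCdim. It passed the test although FITChigh replicate 3 lay below FITCdim replicate 2 (0.65, SE 0.19, adjusted p = 0.028, 3.4e-04 to 0.37 over 16 alternatives). The other 6 did not pass and ran from 0.23 in Ndufa7 to 0.52 in Ndufa2, and the gates overlapped in each of them. Ndufs4, whose loss in mice gives a model of Leigh syndrome, had a mean of 313 ± 52.0 adjusted read counts in FITChigh libraries, against 252 ± 64.5 in FITCdim (mean ± SD, n = 3 each; 0.33, SE 0.19, adjusted p = 0.27). Ndufa9, near the ubiquinone site, averaged 940 ± 80.4 in FITChigh against 774 ± 160 in FITCdim (mean ± SD, n = 3 each; 0.30, SE 0.16, adjusted p = 0.23). Over the 16 matrix arm subunits, core and accessory, the median difference was 0.42 and 4 passed.

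**Figure D2:**
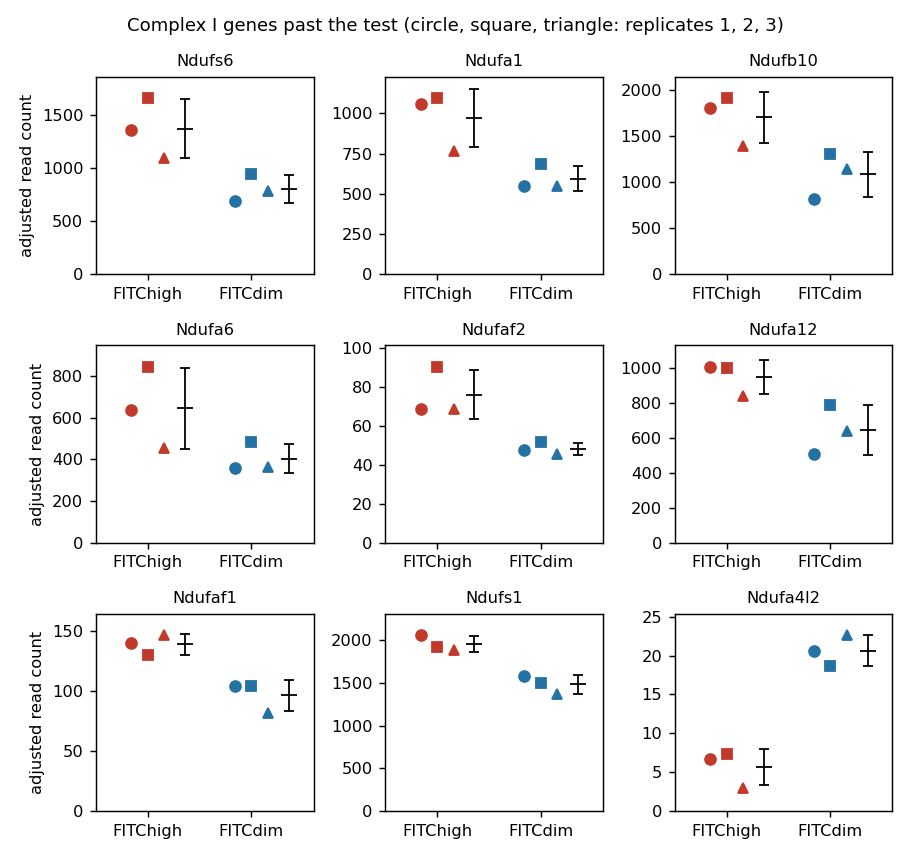
Adjusted read counts of the 9 complex I genes past the test in the 3 FITChigh libraries (red) and the 3 FITCdim libraries (blue), with the mean and SD in black and circle, square and triangle for replicates 1, 2 and 3. The gates overlap only in Ndufa6, Ndufa4l2 is the only gene of the 9 with lower values in FITChigh, and Ndufs1 has the tightest values.

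In the membrane arm, 2 of 18 tested accessory subunits rose, Ndufa1 near the junction with the matrix arm and Ndufb10 at the far end. Ndufa1 (chromosome X, 37187588 to 37191163, mm10), a very small membrane protein, had 1058, 1094 and 764 adjusted read counts in FITChigh libraries, against 551, 687 and 549 in FITCdim. There was no overlap (0.70, SE 0.16, adjusted p = 0.005, 8.4e-05 to 0.19 over 16 alternatives), and the call was lost with the cardiomyocyte marker scaling and without FITCdim replicate 1. The other 7 of the 8 proximal subunits tested ran from 0.22 to 0.48 and did not pass, and the median of the 8 was 0.32. Ndufa11, a membrane subunit, had the lowest difference of the subunits apart from Ndufa4l2. It had 434, 476 and 338 adjusted read counts in FITChigh libraries, against 387, 437 and 259 in FITCdim, with overlapping ranges (0.22, SE 0.18, adjusted p = 0.48). Ndufa10 averaged 1630 ± 132 in FITChigh against 1391 ± 89.6 in FITCdim (mean ± SD, n = 3 each), without overlap but with a small difference (0.23, SE 0.13, adjusted p = 0.27) that changed sign after quantile normalization (-0.034). Ndufa13, also known as Grim19, averaged 1233 ± 461 in FITChigh against 865 ± 236 in FITCdim (mean ± SD, n = 3 each; 0.48, SE 0.23, adjusted p = 0.18).

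The 10 distal subunits tested, all named Ndufb, had a median difference of 0.49 and a range of 0.35 to 0.66. Ndufb10 (chromosome 17, 24722060 to 24724478, mm10), a subunit held by disulfide bonds on the outer face of the arm, had 1807, 1909 and 1393 adjusted read counts in FITChigh libraries, against 822, 1301 and 1139 in FITCdim. All FITChigh values were the higher ones (0.66, SE 0.17, adjusted p = 0.014, 9.6e-04 to 0.3 over 16 alternatives). Ndufb9, which like Ndufa6 anchors an acyl carrier, averaged 1436 ± 411 in FITChigh against 930 ± 225 in FITCdim (mean ± SD, n = 3 each) and was just outside the threshold (0.61, SE 0.20, adjusted p = 0.051). Ndufb11, encoded on the X chromosome, averaged 747 ± 137 in FITChigh against 531 ± 104 in FITCdim (mean ± SD, n = 3 each; 0.49, SE 0.17, adjusted p = 0.061). None of the remaining 7 distal subunits had an adjusted p below 0.084. Ndufab1, the acyl carrier protein itself, occurs in both arms and also serves mitochondrial fatty acid synthesis. It had 248, 284 and 179 adjusted read counts in FITChigh libraries, against 146, 215 and 128 in FITCdim, with an overlap (0.55, SE 0.20, adjusted p = 0.083).

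Ndufa4 and Ndufa4l2 carry the Nduf name, but Ndufa4 is now placed in cytochrome c oxidase (complex IV) and Ndufa4l2 is its paralog, a gene known to be induced by hypoxia. Their differences had opposite signs. Ndufa4 had 1187, 1645 and 939 adjusted read counts in FITChigh libraries, against 1084, 1053 and 613 in FITCdim, with an overlap (0.46, SE 0.22, adjusted p = 0.18). Ndufa4l2 (chromosome 10, 127514967 to 127517154, mm10) had only 6.71, 7.32 and 2.95 in FITChigh against 20.6, 18.7 and 22.7 in FITCdim, resting on 7, 5 and 4 reads in FITChigh against 34, 15 and 20 in FITCdim. It was 3.42-fold higher in FITCdim without overlap (-1.77, SE 0.38, adjusted p = 0.0039), and it was called lower in FITChigh in all 16 alternatives (-2.16 to -1.27, adjusted p 4.2e-04 to 0.034). Of all genes, 13.5% were called lower, among them 12 of 12 endothelial and 6 of 8 mural markers whose summed levels are given above. Their part in the Ndufa4l2 result was not tested. The difference between Ndufa4 and Ndufa4l2 was not tested either.

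The assembly factors stood at far lower levels than the subunits, and 2 of the 7, Ndufaf1 and Ndufaf2, rose, where 2.51% of all genes were called higher. Their differences ran from -0.004 to 0.74 with a median of 0.53 (1.44-fold), beside 0.43 for the 37 subunit-named genes, and the assembly factors were 0.099 and the subunit-named genes -0.00092 with the cardiomyocyte marker scaling. Per kilobase of transcript, the 7 assembly factors had a median level of 36.8 adjusted counts in FITChigh against 30.3 in FITCdim, while 35 subunits, without Ndufa4 and Ndufa4l2, had 822 in FITChigh against 662 in FITCdim. Summed per library, assembly factors came to 2.15% ± 0.274 of the sum of these 35 subunits in FITChigh against 2.16% ± 0.266 in FITCdim (mean ± SD, n = 3 each), which overlapped.

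Ndufaf1 (chromosome 2, 119655446 to 119662827, mm10) belongs, in human cells, to the complex that builds the membrane arm. It had 140, 130 and 147 adjusted read counts in FITChigh libraries, against 104, 104 and 81.3 in FITCdim, without overlap (0.53, SE 0.16, adjusted p = 0.037, 0.012 to 0.71 over 16 alternatives). Ndufaf2 (chromosome 13, 108002715 to 108158623), a late factor that gives way to its paralog Ndufa12, had 68.7, 90.7 and 69.0 in FITChigh against 47.8, 51.8 and 45.7 in FITCdim. It did not overlap either (0.63, SE 0.20, adjusted p = 0.039, 0.013 to 0.48 over 16 alternatives). Ndufa12 and Ndufaf2, which take the same place in turn, were thus both called, with differences of 0.57 and 0.63.

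The other 5 assembly factors did not pass. Ndufaf4, a partner of Ndufaf3 in building the ubiquinone-binding module, had 184, 274 and 209 adjusted read counts in FITChigh libraries, against 170, 161 and 168 in FITCdim (0.40, SE 0.16, adjusted p = 0.11), and Ndufaf6, an early factor, had 30.5, 38.1 and 38.4 in FITChigh against 19.5, 23.5 and 27.2 in FITCdim (0.59, SE 0.26, adjusted p = 0.14). Neither overlapped between the gates. Ndufaf6 was called in quantile-normalized values, where the adjusted p was 0.045, the lowest of 16 alternatives whose highest was 0.66. Ndufaf5, which hydroxylates Ndufs7 in human cells, had 34.3, 50.6 and 33.1 in FITChigh against 28.4, 33.9 and 11.9 in FITCdim (0.74, SE 0.34, adjusted p = 0.17). Its difference was the highest of the 7, FITCdim replicate 3 stood well below the other libraries, and the gates overlapped narrowly. Ndufaf7, a mitochondrial methyltransferase, had 99.4, 78.7 and 67.9 in FITChigh against 71.2, 58.6 and 72.9 in FITCdim (0.27, SE 0.20, adjusted p = 0.42). Ndufaf3 had 35.4, 29.6 and 31.0 in FITChigh against 27.9, 46.1 and 25.4 in FITCdim (-0.004, SE 0.27, adjusted p = 0.99), and its sign changed with the setting. Its partner Ndufaf4 was thus higher in all FITChigh libraries and Ndufaf3 was not, a difference between the 2 genes that was not tested.

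Of 10 tested assembly factors without the Ndufaf name, 1 rose in FITChigh, with a median difference of 0.28 that became -0.15 with the cardiomyocyte marker scaling. It was Atp5sl, renamed Dmac2, a factor for the distal membrane arm, with 238, 237 and 219 adjusted read counts in FITChigh libraries, against 138, 196 and 155 in FITCdim (0.52, SE 0.16, adjusted p = 0.032). Its call was lost without FITChigh replicate 1, 2 or 3, without FITCdim replicate 1 or 3, with a common total and with the marker scaling. Ecsit, a partner of Ndufaf1 with the highest count of the list, had 355, 437 and 308 in FITChigh against 325, 324 and 307 in FITCdim (0.19, SE 0.15, adjusted p = 0.44). The gene 1810043H04Rik, which RefSeq lists as Ndufaf8, stood outside the 45 because of its older symbol. It had 16.2, 20.7 and 13.3 in FITChigh against 5.64, 12.0 and 6.91 in FITCdim, without overlap (0.99, SE 0.37, adjusted p = 0.088).

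Transcript levels of the subunits differed widely even after allowing for length. Per kilobase, FITChigh levels of the 35 subunits ran from 96.4 adjusted counts in Ndufb4 to 2418 in Ndufs6, and FITCdim levels from 66.7 in Ndufab1 to 1485 in Ndufb10. Assembly factors ran from 21.5 in Ndufaf3 to 123 in Ndufaf2 in FITChigh and from 21.2 in Ndufaf5 to 78.5 in Ndufaf2 in FITCdim. Lengths are medians of the annotated protein-coding transcripts. A gene with long annotated isoforms would be placed too low on this scale if these were little used. Which isoforms were used was not measured, also for Ndufab1 at 2447 bases.

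Part of the promoters of complex I genes hold a match to the same sequence pattern. NRF1 (nuclear respiratory factor), a transcription factor of many respiratory genes, binds a site searched here as GCGCA, any 1 base, then GCGC on both strands from 250 bases before to 50 after each RefSeq start (GRCm38.p6). Of the 45 genes 39 had a window in the RefSeq table, with 41 windows in all, of which 10 (24.4%) held the letters, against 4.6% of 32851 windows of all genes. These windows belong to 9 genes, among them Ndufs6 and Ndufa6, which passed the test, and Ndufaf4 and Ndufaf5. Ndufa11, with the lowest difference among the subunits of the enzyme, and Ndufa8 also hold it. The following stretches show matches to that pattern in genes with differences from 0.22 in Ndufa11 to 0.76 in Ndufs6. They are 30 bases long, 5′ to 3′ on the gene's strand, with the matched letters in capitals. In Ndufs6, Ndufa6 and Ndufa8 these letters match on the strand opposite to the one shown.
Ndufs6, chr13:73328479-73328508, minus strand: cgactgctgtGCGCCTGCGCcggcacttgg
Ndufa6, chr15:82354249-82354278, minus strand: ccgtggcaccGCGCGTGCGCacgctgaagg
Ndufa8, chr2:36049349-36049378, minus strand: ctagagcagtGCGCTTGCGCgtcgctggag
Ndufa11, chr17:56717692-56717721, plus strand: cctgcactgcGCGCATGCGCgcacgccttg
Ndufaf4, chr4:24897960-24897989, plus strand: ccagatgtctGCGCATGCGCctgtgcggaa
Ndufaf5, chr2:140170652-140170681, plus strand: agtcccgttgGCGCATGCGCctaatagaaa
The match begins 16 bases before the RefSeq start in Ndufs6, 30 before it in Ndufa8, 60 before it in Ndufa11 and 113 before it in Ndufaf4, and it lies after the start in Ndufa6 and Ndufaf5. GENCODE places the starts of Ndufs6 and Ndufa8 further upstream, so that these matches lie within its bounds of both genes. Of the 7 called genes with a window, 2 held the letters. The element of the estrogen-related receptors, TCAAGGTCA, was in 0 of the 41 windows and in 0.423% of all windows. These are matches of letters, and no binding was measured.

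The libraries of a gate did not carry complex I transcripts at one level. In FITChigh, replicate 2 was the highest library in 34 of the 44 genes and replicate 3 the lowest in 38. In FITCdim, replicate 2 was the highest in 34 and replicate 3 the lowest in 34. Replicates with the same number share a tag in their titles that the labels do not explain. The median deviations from the gate's mean were 0.02, 0.27 and -0.30 on the log2 scale in replicates 1, 2 and 3 of FITChigh, against 0.03, 0.28 and -0.32 in those of FITCdim, so that the step between libraries of a gate was larger than the median difference of 0.44 between the gates. Over all 12907 genes, replicate 2 was the highest in 4440 genes in FITChigh against 3944 in FITCdim, and the median deviations lay between -0.01 and 0.03. Replicate 2 had the fewest recovered reads of its gate. In replicates 1, 2 and 3 these numbered 2543794, 1589825 and 2931045 in FITChigh, against 3345994, 1705626 and 1852505 in FITCdim. In FITChigh, replicate 2, mostly the highest library, had the fewest reads, and replicate 3, mostly the lowest, had the most. In FITCdim, replicates 2 and 3 had similar depths, and replicate 1 had the most reads. The part of depth in the pattern was not tested. The subunit-named genes carried the pattern, with replicate 2 highest in 31 of 37 in each gate, while among the 7 assembly factors it was highest in 3 in each gate. The pattern was not particular to complex I. Summed nuclear genes of respiratory complexes III, IV and V were also highest in replicate 2 and lowest in replicate 3 of either gate. Complex IV summed to 24876, 27399 and 18113 adjusted read counts in FITChigh libraries, against 14396, 20053 and 13521 in FITCdim.

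**Figure D3:**
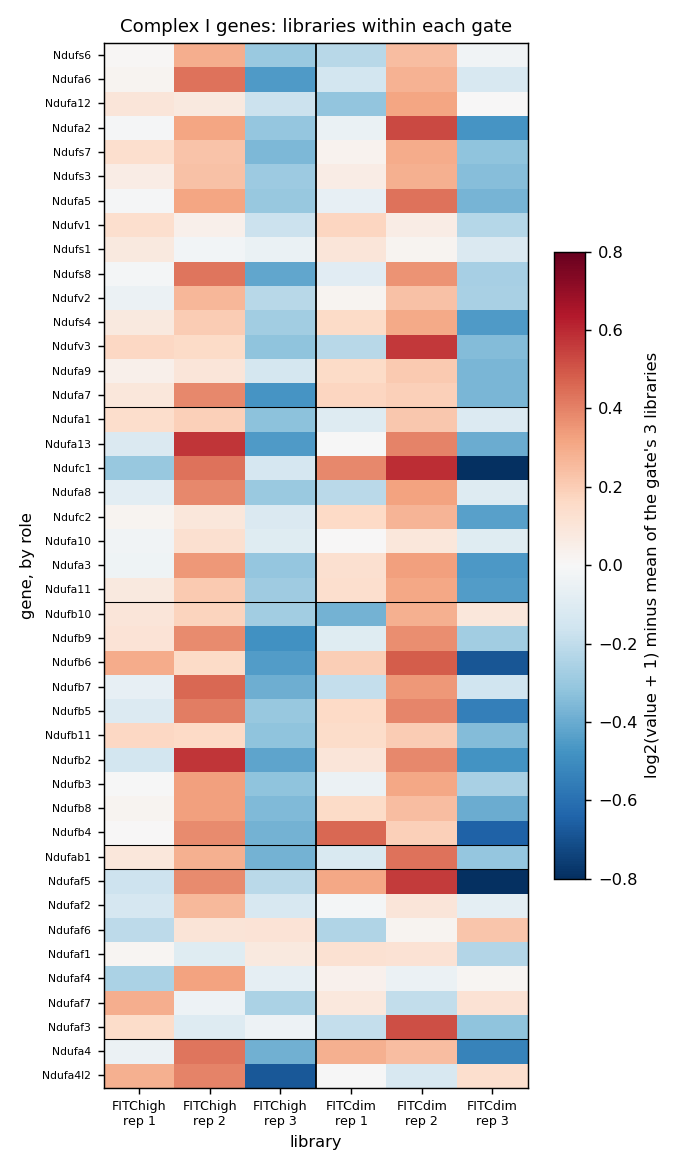
Deviation of each of 43 complex I genes from its gate's mean, as log2(value + 1), in the 3 FITChigh and the 3 FITCdim libraries, with genes ordered by place in the enzyme. Replicate 2 is mostly the highest library in either gate (red) and replicate 3 mostly the lowest (blue), a pattern that is weaker in the 7 assembly factors.

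Among the subunits, genes with low counts varied more between the libraries of a gate. Over the 35 subunits, the SD within gates had a Spearman correlation of -0.62 with the mean level and of -0.27 with transcript length, and these points share their libraries. It ran up to 0.66 in Ndufc1, a small membrane subunit with 118, 198 and 133 adjusted read counts in FITChigh libraries, against 146, 168 and 55.9 in FITCdim. The difference between the gates had a correlation of -0.21 with transcript length and 0.13 with the mean level. The 17 subunits with transcripts of up to 782 bases had a median difference of 0.50 and the 18 longer ones 0.40. Their median SD within gates was 0.37 and 0.30. The assembly factors, with mostly lower counts, did not all vary more. Their SD was 0.16, 0.17, 0.33, 0.21, 0.59, 0.21 and 0.23 in Ndufaf1 to Ndufaf7.

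Set against the contractile genes of the same libraries, the complex I level overlapped between the gates. The 44 genes summed to 31713, 36780 and 25651 adjusted read counts in FITChigh libraries, against 22964, 27058 and 19031 in FITCdim, a ratio of means of 1.36. FITChigh replicate 3 lay below FITCdim replicate 2. Between libraries of the same replicate number the FITChigh sum was the higher one each time, though the labels do not explain the tag that these libraries share. The 16 cardiomyocyte markers, mostly sarcomere genes, summed to 488206, 483622 and 454535 in FITChigh against 300549, 341230 and 352608 in FITCdim, without overlap and with a ratio of 1.43. Their median difference was 0.46, and 1 of the 16 passed the test. The complex I sum was 6.50%, 7.61% and 5.64% of the marker sum in FITChigh against 7.64%, 7.93% and 5.40% in FITCdim, or 6.58% ± 0.984 in FITChigh and 6.99% ± 1.39 in FITCdim (mean ± SD, n = 3 each), and the gates overlapped. Of all adjusted counts, complex I made up 1.30% ± 0.203 in FITChigh against 1.10% ± 0.192 in FITCdim (mean ± SD, n = 3 each), also with overlap. In replicates 1, 2 and 3 this share was 1.31%, 1.51% and 1.10% in FITChigh against 1.13%, 1.28% and 0.901% in FITCdim. It was thus higher in FITChigh for each replicate number, while the percent of the marker sum was higher in FITChigh only for replicate 3.

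**Figure D4:**
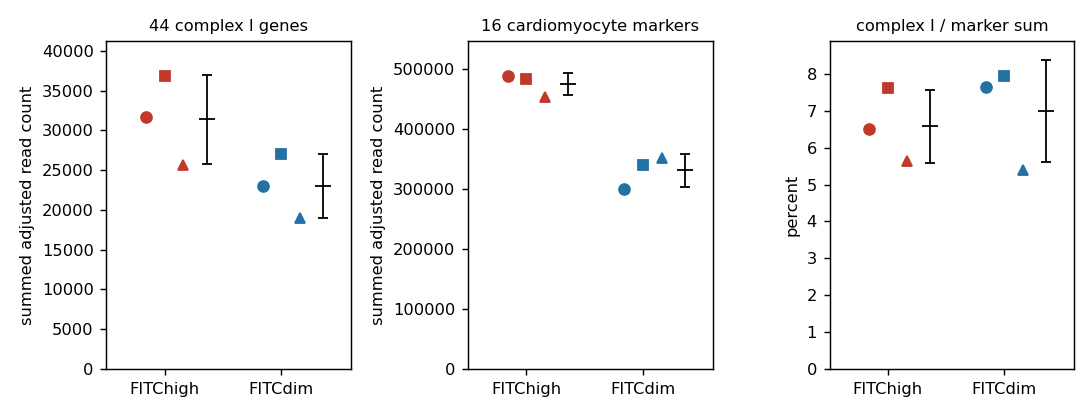
Summed adjusted read counts of the 44 complex I genes (left) and of the 16 cardiomyocyte markers (middle), and the complex I sum as a percent of the marker sum (right), in each FITChigh library (red) and FITCdim library (blue), with mean and SD in black and circle, square and triangle for replicates 1, 2 and 3. Marker sums separate the gates, complex I sums overlap by 1 library, and the percentages, 5.64 to 7.61 in FITChigh and 5.40 to 7.93 in FITCdim, overlap fully.

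The scaling of the libraries sets the level against which complex I is read. The median difference of all genes was -0.006 as deposited, -0.20 with a common total, 0.13 after quantile normalization and -0.42 when each library was scaled to the geometric mean of the 16 cardiomyocyte markers. The complex I median was 0.44, 0.23, 0.33 and 0.0031 under the same 4 scalings. Relative to the median of all genes it therefore stood at 0.44, 0.43, 0.20 and 0.42, and 43, 42, 36 and 42 of the 44 complex I genes lay above that median. Ndufa4l2 was below it in each.

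The nuclear genes of the other respiratory complexes were also higher in FITChigh as deposited, though not relative to cardiomyocyte markers. All 42 tested genes of complexes II to V had a difference above 0, with a median of 0.41. In limma-trend 9 rose and 0 fell, where 2.51% of all genes were called higher, and 24 were higher and 0 lower at an unadjusted p under 0.05. The share of all genes at that unadjusted p is not given here, so the unadjusted counts of these lists have no share to be read against. The count of 9 depended on the libraries and the scaling as well. It was 2, 4 and 13 without FITChigh replicates 1, 2 and 3, and 0, 10 and 3 without FITCdim replicates 1, 2 and 3. It was 3 with a common total and 0 after quantile normalization, while robust limma called 11 and limma-voom 12. At an unadjusted p under 0.05, 15 of the 42 were higher without FITCdim replicate 1 and 8 after quantile normalization. Complex II, succinate dehydrogenase, which feeds electrons from the TCA cycle into the chain, had 0 of 4 genes called at a median of 0.35, although all 4 were higher at an unadjusted p under 0.05, and limma-voom and robust limma also called 0. Its flavin-binding subunit Sdha, with the highest count of the list, had 4352, 3925 and 4179 adjusted read counts in FITChigh libraries, against 3446, 3357 and 3323 in FITCdim, without overlap (0.30, SE 0.14, adjusted p = 0.16). Complex III, which takes electrons from ubiquinol to cytochrome c, had 5 of 9 genes called at a median of 0.51. These were Uqcrb at 0.69 (adjusted p = 0.0078), Uqcr11 at 0.69 (0.018), Uqcrq at 0.65 (0.025), Uqcrc2 at 0.52 (0.017) and Uqcrc1, with the highest count of the list, at 0.49 (0.043).

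Complex IV, which reduces oxygen, had 2 of 13 genes called at a median of 0.35. Cox6a2, the heart and muscle isoform of a small subunit, had 10227, 8904 and 6658 adjusted read counts in FITChigh libraries, against 3110, 6027 and 4897 in FITCdim (0.91, SE 0.22, adjusted p = 0.0098), and Cox7a1, another muscle isoform, differed by 0.54 (adjusted p = 0.041). The ATP synthase, complex V, had 2 of 16 called at a median of 0.39, Atp5d at 0.67 (adjusted p = 0.0089) and Atp5g3 at 0.66 (adjusted p = 0.012), while Atp5b, with its highest count, stood at 0.37 (adjusted p = 0.21). With the cardiomyocyte marker scaling the medians were -0.087, 0.075, -0.085 and -0.042 for complexes II, III, IV and V, and 0 of the 42 genes were called, with 1 higher and 0 lower at an unadjusted p under 0.05. The complex I sum was 204% ± 7.98 of the complex III sum in FITChigh against 213% ± 9.28 in FITCdim, 134% ± 7.07 of the complex IV sum in FITChigh against 145% ± 12.8 in FITCdim, and 71.9% ± 4.50 of the complex V sum in FITChigh against 69.6% ± 2.56 in FITCdim (mean ± SD, n = 3 each). Each of these ratios overlapped between the gates. Ndufa4, with a mean of 1257 in FITChigh and 917 in FITCdim, was counted by its name in the complex I sum and not in the complex IV sum. The lists were set side by side without a test between them.

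**Figure D5:**
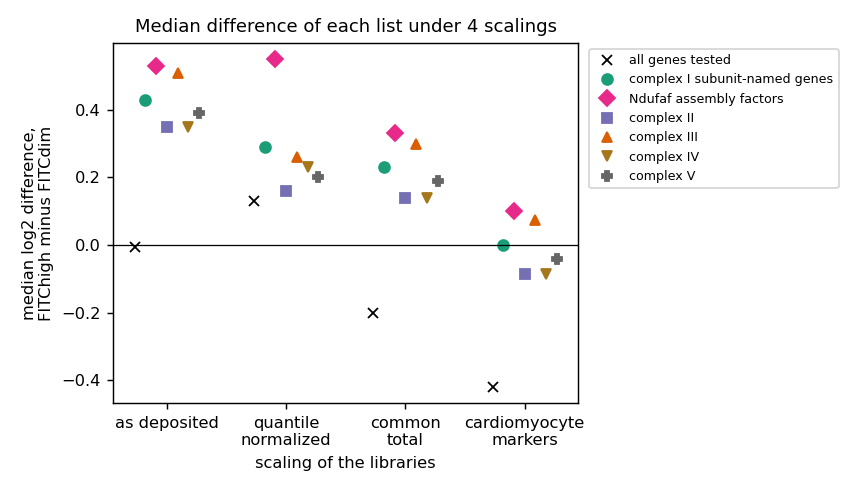
Median log2 difference (FITChigh minus FITCdim) of all genes tested, complex I subunit-named genes, Ndufaf assembly factors and complexes II to V, under 4 scalings of the libraries. Complex I subunits and the other complexes lie close together under each scaling, above all genes, and move to between -0.087 and 0.075 with the cardiomyocyte marker scaling, while the assembly factors lie at 0.53, 0.55, 0.33 and 0.099 from left to right.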

How the data were processed

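Sorted cells gave total RNA, from which polyadenylated RNA was read strand-specifically as pairs of 75 bp on an Illumina NextSeq, per the labels' protocols. STAR 2.5, edgeR and mm10 are named in the submitters' processing notes. Which program counted the reads, with which annotation and strand setting, is not given in the sources used here. The deposited unit is a signal value: the authors adjusted each gene's read count to a library size common to all libraries and did not divide it by gene length. Inverting that adjustment gave back whole reads (100% of values within a tolerance of 0.1), which served for depth and for 1 alternative. Garbled lines (6) were dropped.

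The test was limma-trend (limma 3.58.1, R 4.3.3, two-sided, without a block) on log2(value + 1) over the 12907 genes that reached 1 in 3 or more libraries, adjusted by Benjamini-Hochberg, with calls under 0.05, after a check on simulated data. The scale understates changes of low genes. Replicate numbers follow accession order. Libraries of a gate differed by more than sampling noise in every pair (chi-square over its degrees of freedom, 3.63 to 6.09), and each was counted as a sample.

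The members and all lists were chosen with earlier results of these data known. All Nduf genes could be named, except that 1 is not reported here singly. Values per library are given for those past the test, all Ndufaf genes, the core subunits, Ndufa4, Ndufa4l2, Ndufab1, the 2 highest and 2 lowest differences and the highest mean among the subunits reported, and, chosen after their values were seen, for Ndufc1 and 1810043H04Rik. In other lists, genes past the test and the one with the highest mean are named. Older symbols were matched for 4 genes through RefSeq. Positions and transcript lengths are from the GENCODE annotation of GRCm38, which is mm10. There were 16 alternatives, among them other pseudocounts, filters and scalings, limma-voom on recovered reads, robust limma, a block and leaving out each library. The cardiomyocyte marker scaling was added after seeing the data.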

Additional observations from a re-analysis of the deposited data

How the results depend on the processing

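Ndufa4l2 was called lower in FITChigh in every alternative, and no alternative called a gene of complexes II to V or of the other assembly factors lower. Pseudocounts of 0.5 and 5, the filters on low values, robust limma and limma-voom moved no count of calls by over 1.5 times. Scaling to a common total gave 2 complex I genes higher, 41 of all genes, 3 of complexes II to V and 0 other assembly factors, and the assembly factor median was 0.33. Quantile normalization gave 5 complex I genes and 0 of complexes II to V. The cardiomyocyte marker scaling, added after seeing the data, gave 0, 9, 0 and 0 higher genes in the order above and 3478 lower ones among all genes. The subunit median was then -0.00092 and the assembly factor median 0.099. This scaling lowers all genes by a similar amount (the median of all genes was -0.42 with it and -0.006 as deposited), so the genes with the smaller differences as deposited moved below 0 by its construction. These were 19 of 43, with Ndufa10 -0.21, Ndufa11 -0.21, Ndufa3 -0.20, Ndufa7 -0.20, Ndufc2 -0.18, Ndufaf7 -0.16, Ndufa9 -0.14, Ndufv3 -0.12, Ndufs4 -0.10, Ndufb4 -0.075, Ndufv2 -0.065, Ndufs8 -0.046, Ndufa8 -0.044, Ndufc1 -0.039, Ndufaf4 -0.034, Ndufs1 -0.033, Ndufb8 -0.027, Ndufa5 -0.0021 and Ndufv1 -0.00092. Other changes of sign were Ndufa10 at -0.034 and Ndufaf3 at 0.23 after quantile normalization, Ndufaf3 at 0.032 in limma-voom and at 0.017 to 0.25 without FITChigh replicate 2 (0.048), FITChigh replicate 3 or FITCdim replicate 2, and Ndufc1 at -0.097 without FITCdim replicate 3 (0.69 without FITCdim replicate 2). The cause of these other changes was not tested. With 1 library left out, the counts ran from 1 to 14 for complex I genes higher, 67 to 337 for all genes higher, 1156 to 1667 for all genes lower, 0 to 13 for complexes II to V higher and 0 to 1 for other assembly factors higher. The subunit median ran from 0.25 to 0.59 and the assembly factor median from 0.40 to 0.59. Depth limits the scarce genes, such as Ndufa4l2 with 4 to 34 reads per library.

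Titles share a tag between the gates (none, 1-2, 3-4) that the labels do not explain. Over 12907 genes, deviations of same-tag libraries correlated at 0.071, 0.125 and 0.175 and those of other pairs at -0.122 to -0.008, so every library correlated best with its own tag, a hint from the data and not from the design. With the tag as a replicate block, 31 complex I genes, 36 of complexes II to V and 1064 of all genes were higher.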
